A study of Mus musculus with 10 samples.

Results

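The BCL2 family genes examined were Bcl2, Bcl2l1, Mcl1, Bcl2l11, Bax, Bak1, Bid, Pmaip1, Bbc3 and Bad, taken as all probe sets that the array's platform table assigns to one of these symbols. The rule found 29 of the 45101 probe sets, and they covered 9 of the 10 genes. Bax had no probe set under its symbol in that table and was not analysed here. The samples were a mouse acute lymphoblastic leukaemia named NSTY, of C57BL/6 background, that carried the human p210 bcr/abl fusion and a deletion of Ink4a/Arf in both groups. C57BL/6 recipients were prepared with total body irradiation and 5-fluorouracil and then received leukaemia together with marrow and spleen cells, which were syngeneic (C57BL/6, 5 animals) or allogeneic (C3.SW, 5 animals). The leukaemia was recovered by flow cytometry after 2 to 3 weeks, moved into newly transplanted animals over 3 serial transplants, and finally sorted from bone marrow on green fluorescent protein. All samples derive from this 1 leukaemia. The sources used here do not say whether animals of one group were given cells from a shared donor of the previous passage, so p-values reflect the animal-to-animal spread and nothing wider.

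The BCL2 family decides whether mitochondria release the factors that start cell death. Bcl2, Bcl2l1 (which encodes BCL-XL) and Mcl1 encode pro-survival proteins that bind and hold back the pro-death members. Bax and Bak1 encode the effectors that open the outer mitochondrial membrane. Bcl2l11 (BIM), Bid, Pmaip1 (NOXA), Bbc3 (PUMA) and Bad encode BH3-only proteins, which sense damage or lost growth signals and either block the pro-survival proteins or activate the effectors. In BCR-ABL leukaemia, kinase signalling is known to maintain pro-survival members and to restrain BIM and BAD. The comparison asks how these transcripts differed between leukaemia passed through an allogeneic and through a syngeneic immune environment.

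Values are log2 intensities after quantile normalization between arrays, and the brightest probe set on average stands for its gene (the representative probe set). Differences are allogeneic minus syngeneic, with the standard error (SE) and 95% interval from limma, and p-values were adjusted over all 18193 genes, or over all 45037 probe sets for the probe sets that do not represent their gene. Between 11224 and 13094 genes per array exceeded a background limit of 4.50 to 5.32. Of 11 measured B-lymphoid progenitor markers, 10 exceeded it on every array. The other, Pax5, did so on 4 of 5 syngeneic and 2 of 5 allogeneic arrays, with means of 5.58 and 4.37 (limma adjusted p = 0.281). Vpreb1, a surrogate light chain gene of pre-B cells and the brightest of the list, had means of 13.64 (syngeneic) and 13.68 (allogeneic). Allogeneic animal 1 was picked out by the count of calls: 636 genes were called without it, against 106 with it. Over the removals of 1 animal this count ran from 55 to 636. The arrays of allogeneic animals 1, 3 and 4 had a lower quartile of 18.7 to 19.5 on the intensity scale, and the other 7 had 13.8 to 14.4. Results are also given without animal 1 where its removal changed a call. As that animal was picked by the number of calls, those results are descriptions.

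No transcript of the measured BCL2 family genes passed the test between the groups. Of the 9 genes, 0 passed limma's test at an adjusted p under 0.05, which 0.583% of all genes did. Of the 29 probe sets 0 passed, against 0.411% of all probe sets. At an unadjusted p under 0.05 there were 2 member genes, Bcl2l11 and Bad, where 16.9% of all genes reached this level, and 6 member probe sets, where 16.9% of all probe sets did. The groups overlapped for all 9 genes and for all 29 probe sets, while 4.83% of genes and 4.74% of probe sets had groups without overlap. The median size of a difference, without its sign, was 0.25 over the members and 0.25 over all genes. For the representative probe sets of the 8 members above background on every array, the 95% intervals reached no further than 0.72 from 0 in either direction. Those of dimmer probe sets reached further, to -2.28 for Bcl2 1443837_x_at, -1.52 for Bcl2 1440770_at and 1.25 for Bcl2l1 1420887_a_at. No member gene was called under any of the 20 alternative settings.

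**Figure D1:**
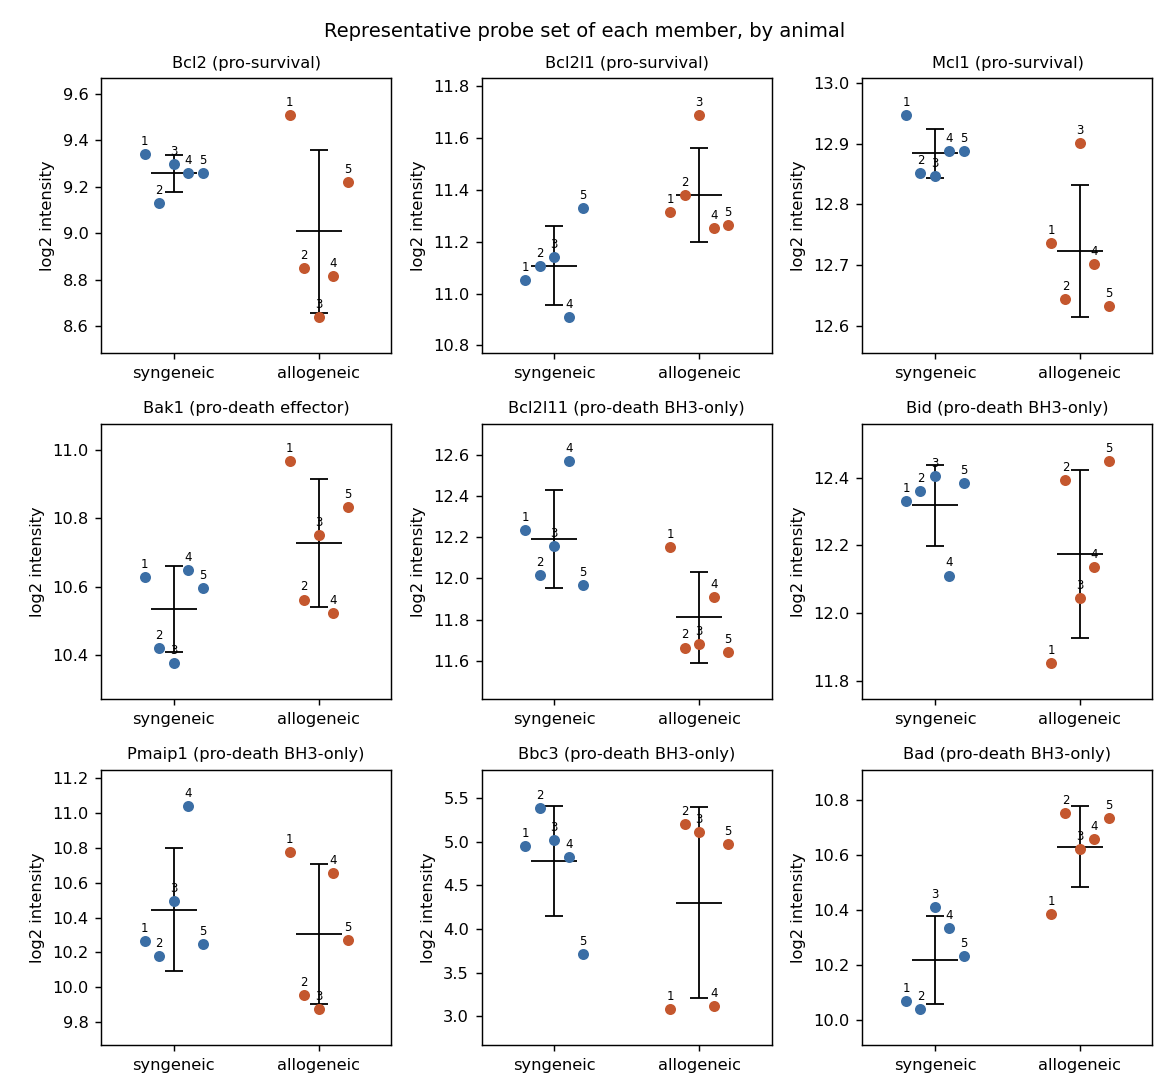
Log2 intensity of the representative probe set of each of the 9 measured BCL2 family genes, with 1 point per animal (numbered) and bars for mean ± SD, n = 5 per group; each panel has its own vertical scale, which does not start at 0. The groups overlap in every panel, and Bad comes nearest to separation, with syngeneic values up to 10.41 and allogeneic values from 10.39.

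Among the pro-survival genes, Bcl2l1 alone had a positive difference, and Bcl2 and Mcl1 had negative ones, in the reported fit and in all 20 alternatives. Its representative probe set, 1420888_at, read 11.05, 11.11, 11.14, 10.91 and 11.33 in syngeneic animals 1 to 5, and 11.32, 11.38, 11.69, 11.25 and 11.26 in allogeneic animals 1 to 5. All 5 allogeneic values lay above the syngeneic mean, but syngeneic animal 5 exceeded 3 of them. The difference was 0.27 (SE 0.13, 95% interval -0.0085 to 0.55, limma adjusted p = 0.311), and it did not pass. Allogeneic animal 3 was the highest array of all 10.

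The other probe sets of Bcl2l1 gave larger differences at lower signal. Probe set 1420887_a_at read 7.59, 7.71, 7.89, 7.90 and 8.36 in the syngeneic animals and 7.98, 8.75, 8.95, 8.94 and 8.59 in the allogeneic animals. Allogeneic animal 1 fell inside the syngeneic range and the other 4 lay above it. Its difference of 0.75 (SE 0.22, limma adjusted p = 0.152) did not pass, nor did that of 1426191_a_at, which was 0.58 (SE 0.24, adjusted p = 0.261). The suffix _a_at marks probe sets shared by transcript variants of a gene. The last probe set, 1426050_at, was below background on all arrays of both groups and has no fold.

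For Bcl2, the founding pro-survival member, all 5 probe sets had a negative difference and none passed. The representative one, 1457687_at, stood at 9.34, 9.13, 9.30, 9.26 and 9.26 in the syngeneic animals and at 9.51, 8.85, 8.64, 8.82 and 9.22 in the allogeneic animals. The syngeneic values were close together, whereas the allogeneic group held both the highest and the lowest of the 10. The SD was 0.079 among syngeneic and 0.35 among allogeneic animals, and the difference was -0.25 (SE 0.17, 95% interval -0.62 to 0.12, limma adjusted p = 0.473). It became -0.16 without allogeneic animal 3 and -0.38 without allogeneic animal 1.

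Of the dimmer Bcl2 probe sets, 2 had larger negative differences. Probe set 1443837_x_at read 6.75 to 7.62 in the syngeneic group and 7.11, 6.20, 4.08, 6.17 and 6.23 in allogeneic animals 1 to 5, so that animal 1 was within the syngeneic range and animal 3 below the background limit. The difference was -1.22 (SE 0.48, limma adjusted p = 0.241), and -0.75 without animal 3 (adjusted p = 0.209). The suffix _x_at marks probe sets with probes that may bind other transcripts. Probe set 1440770_at read 6.31 to 7.13 in the syngeneic group and 6.79, 6.09, 5.14, 5.26 and 5.90 in the allogeneic animals, again with animal 1 among the syngeneic values. Its difference was -0.82 (SE 0.31, adjusted p = 0.226). The remaining probe sets differed by -0.29 (1437122_at) and -0.17 (1422938_at), the second by 0.013 without allogeneic animal 3 and by -0.34 without allogeneic animal 5. In leukaemia sorted in bulk, fewer cells with a transcript and less transcript per cell cannot be told apart.

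Mcl1, whose short-lived protein is a main survival factor of lymphoid progenitors, differed least among the pro-survival genes. The representative probe set 1456243_x_at read 12.95, 12.85, 12.85, 12.89 and 12.89 in the syngeneic animals and 12.74, 12.64, 12.90, 12.70 and 12.63 in the allogeneic animals. Here 4 allogeneic animals lay below every syngeneic one and animal 3 did not. The difference was -0.16 (SE 0.095, 95% interval -0.37 to 0.051, limma adjusted p = 0.422). The 6 probe sets of Mcl1 differed by between -0.20 and 0.020, with adjusted p-values from 0.387 to 0.993. One of them, 1448503_at, moved between 0.020 and -0.036 with the normalization.

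**Figure D2:**
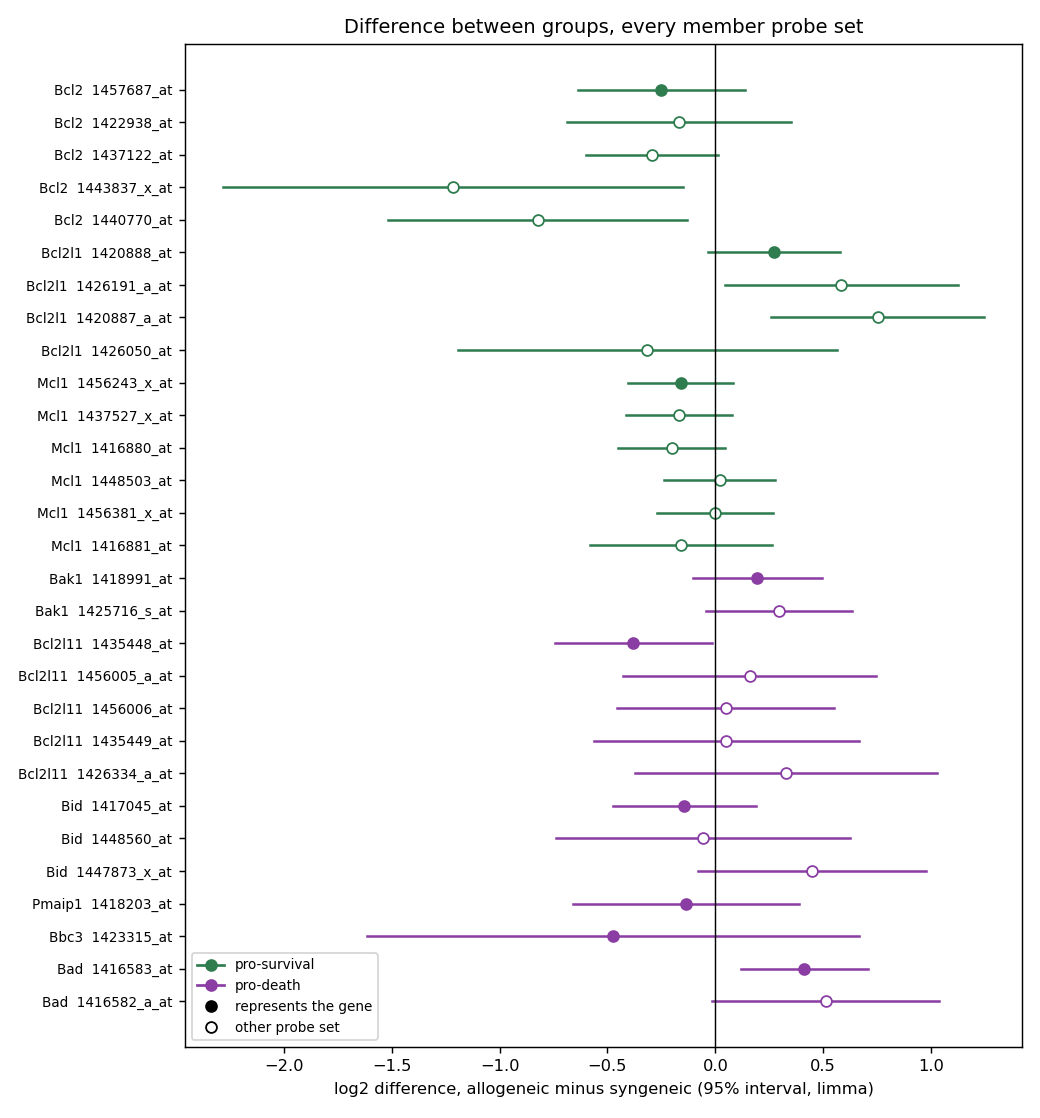
Log2 difference between the groups, allogeneic minus syngeneic, with the 95% interval from limma's fit over all probe sets, for all 29 member probe sets; filled points represent their gene. All 5 Bcl2 probe sets lie below 0, 3 of 4 Bcl2l1 probe sets and both of Bad and Bak1 lie above it, and the probe sets of Bcl2l11 and Bid fall on both sides.

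Of the pro-death genes, Bad came nearest to the threshold. BAD binds BCL2 and BCL-XL and is kept inactive by phosphorylation through survival kinases. Probe set 1416583_at read 10.07, 10.04, 10.41, 10.34 and 10.23 in the syngeneic animals and 10.39, 10.75, 10.62, 10.66 and 10.73 in the allogeneic animals. All but allogeneic animal 1 exceeded every syngeneic value, and animal 1 was below syngeneic animal 3 only. The difference was 0.41 (SE 0.12, 95% interval 0.14 to 0.68, limma adjusted p = 0.151), or 1.33-fold. The other probe set, 1416582_a_at, read 9.41 to 9.75 in the syngeneic group and 9.18, 10.41, 10.18, 10.15 and 10.44 in the allogeneic animals. Animal 1 was the lowest of the 10 arrays there and the other 4 allogeneic animals were the highest, with a difference of 0.51 (SE 0.24, adjusted p = 0.307).

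Bcl2l11, whose product BIM binds all pro-survival members and is induced when cytokine or kinase signalling is lost, was lower by its brightest probe set and not by the others. Probe set 1435448_at read 12.24, 12.02, 12.16, 12.57 and 11.97 in the syngeneic animals and 12.15, 11.66, 11.68, 11.91 and 11.64 in the allogeneic animals. The allogeneic values were all below the syngeneic mean, and only animal 1 was within the syngeneic range. The difference was -0.38 (SE 0.15, 95% interval -0.72 to -0.035, limma adjusted p = 0.255). The other 4 probe sets of Bcl2l11 had positive differences, from 0.048 to 0.33 with adjusted p-values from 0.635 to 0.949, although 1435449_at stood at -0.00058 without quantile normalization. With the mean over its probe sets in place of the brightest one, the gene differed by 0.041 (adjusted p = 0.940), so its direction rests on which probe set is read.

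Bak1, the measured effector, differed by 0.19 (SE 0.12, 95% interval -0.080 to 0.47, limma adjusted p = 0.452). It ranged from 10.38 to 10.65 in the syngeneic and from 10.52 to 10.97 in the allogeneic group, where 3 of 5 animals lay above all syngeneic ones. Its other probe set, 1425716_s_at, differed by 0.29 (adjusted p = 0.361). Bid, which caspase-8 and granzyme B cleave into an active form, ranged from 12.11 to 12.40 and from 11.85 to 12.45, and differed by -0.14 (SE 0.14, 95% interval -0.45 to 0.16, adjusted p = 0.637). When 1 animal was left out, the difference of Bid ran from -0.21 to -0.063, the latter without allogeneic animal 1. Allogeneic animals held both the highest and the lowest Bid value, and a dimmer probe set (1447873_x_at) differed by 0.45 (adjusted p = 0.371).

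Pmaip1, whose product NOXA mainly binds MCL1, was spread widely within both groups. It read 10.26, 10.18, 10.49, 11.04 and 10.25 in the syngeneic and 10.78, 9.96, 9.88, 10.65 and 10.27 in the allogeneic animals. The difference of -0.14 (SE 0.23, 95% interval -0.65 to 0.38, limma adjusted p = 0.805) was smaller than the SD of either group (0.35 and 0.40), and it became 0.012 without syngeneic animal 4. Leaving out allogeneic animals 1, 2, 3 or 4, 1 at a time, gave -0.25, -0.049, -0.029 and -0.22. Bbc3, a p53 target whose product PUMA binds all pro-survival members, was near background, above the limit on 3 of 5 syngeneic and 2 of 5 allogeneic arrays. Its 2 lowest values were 3.09 and 3.12 in allogeneic animals 1 and 4, and its difference of -0.48 (SE 0.51, adjusted p = 0.674) has a 95% interval of -1.62 to 0.66, the widest of the members' representative probe sets. Leaving out allogeneic animal 1 or 4 brought it to -0.17 or -0.18, and leaving out syngeneic animal 5 to -0.74.

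Bcl2l11 and Bbc3 are textbook targets of FOXO transcription factors, which survival kinases keep out of the nucleus. The RefSeq promoters of the measured members on GRCm38.p6 (250 bases before to 50 after each start site; 14 promoters of 8 genes) were searched on both strands for the FOXO motif GTAAACA. It was present in 2 of the 14, against 3.65% of all 32851 promoters, and these are printed 5′ to 3′ along the gene with the match in capitals.
Bcl2l11, chr2:128125788-128126087, plus strand: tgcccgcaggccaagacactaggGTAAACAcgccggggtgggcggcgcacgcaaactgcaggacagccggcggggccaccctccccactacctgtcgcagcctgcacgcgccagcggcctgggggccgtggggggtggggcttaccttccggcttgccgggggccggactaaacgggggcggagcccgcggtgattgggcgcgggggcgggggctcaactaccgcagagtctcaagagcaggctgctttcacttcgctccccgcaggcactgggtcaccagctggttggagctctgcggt
Bbc3, chr7:16310011-16310310, plus strand: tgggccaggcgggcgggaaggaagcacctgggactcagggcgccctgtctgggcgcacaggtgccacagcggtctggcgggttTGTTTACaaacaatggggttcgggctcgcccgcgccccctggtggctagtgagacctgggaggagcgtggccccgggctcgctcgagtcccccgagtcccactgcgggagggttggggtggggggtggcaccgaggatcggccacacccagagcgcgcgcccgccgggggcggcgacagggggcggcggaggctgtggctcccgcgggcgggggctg
The match begins 227 bases before the start site in Bcl2l11, on the plus strand, and 167 bases before it in Bbc3, on the opposite strand. The interferon-related motifs TTCNNNGAA (bound by STAT dimers, in 8.3% of all promoters) and the interferon-stimulated response element core (GAAA, any 2 bases, GAAA, in 3.44%) were in 0 of the 14. A match or its absence describes these letters only. Foxo1 and Foxo3 differed by -0.19 (SE 0.11, limma adjusted p = 0.417) and -0.11 (SE 0.14, adjusted p = 0.733) and did not pass. When 1 animal was left out, Foxo1 ran from -0.23 to -0.13 (the latter without allogeneic animal 5) and Foxo3 from -0.17 (without allogeneic animal 1 or 3) to -0.037 (without allogeneic animal 5; -0.046 without allogeneic animal 2). Over all 20 alternatives Foxo1 ran from -0.30 to -0.069 and Foxo3 from -0.37 to -0.037.

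Pro-survival and pro-death members were then set beside each other, as shifts from the syngeneic mean of each gene. The 3 pro-survival genes had a median difference of -0.16 and the 6 pro-death genes one of -0.14, against 0.011 over all genes. These medians are descriptions, since the members are not replicates. The opposite signs of Bcl2l1 against Bcl2 and Mcl1, and of Bad and Bak1 against the other pro-death genes, lie behind both values. Pro-survival minus pro-death medians were 0.034, 0.11, -0.035, -0.11 and 0.095 in the syngeneic animals. They were 0.14, -0.29, 0.047, -0.086 and -0.20 in the allogeneic animals. The allogeneic group thus held the highest value (animal 1) and the 2 lowest (animals 2 and 5), and the groups overlapped. The pro-death median counts Bbc3, which was above background on 5 of 10 arrays. Its shift was -1.69 and -1.65 in allogeneic animals 1 and 4, and -1.06 in syngeneic animal 5. Which allogeneic animals were highest and lowest depends on counting this gene. With the mean over each gene's probe sets, the pro-death median was 0.061, with a change of sign, and it was -0.070 without allogeneic animal 3 and -0.091 without syngeneic animal 4.

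**Figure D3:**
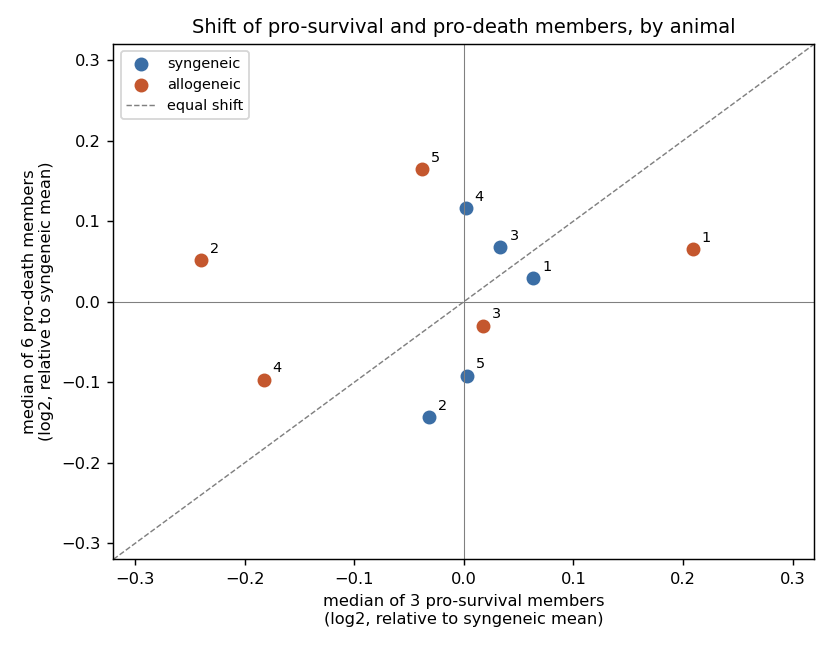
For each animal (numbered), the median shift of the 3 pro-survival genes against that of the 6 measured pro-death genes, in log2 units relative to the syngeneic mean of each gene; the dashed line marks equal shifts. On the pro-survival axis allogeneic points spread more widely than syngeneic ones, from 0.21 in animal 1 to -0.24 in animal 2. On the pro-death axis the values ran from -0.14 to 0.12 in syngeneic and from -0.097 to 0.16 in allogeneic animals. This similar spread depends on counting Bbc3, which was near background. Allogeneic points lie on both sides of the line.

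Spread between animals was larger in the allogeneic group for 7 of the 9 members. The same held for 85.7% of the 10455 genes above background on all arrays, so the members did not stand out in this. Bcl2 had the largest ratio of allogeneic to syngeneic SD, 4.45, and Bcl2l11 and Bad had ratios of 0.92 and 0.91. Over all genes above background the median ratio was 1.80.

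The calls of 3 probe sets changed when allogeneic animal 1 was left out. That animal was picked because its removal gave the most called genes of the single removals, so these calls are a description. Without that animal, 3 of the 29 member probe sets passed limma's test, where 4.49% of all probe sets did. Bad 1416582_a_at then differed by 0.74 (SE 0.13, adjusted p = 0.0224), Bcl2l1 1420887_a_at by 0.92 (SE 0.18, adjusted p = 0.0274) and Bcl2 1440770_at by -1.06 (SE 0.25, adjusted p = 0.0497). The brighter probe sets that represent these genes did not pass, with differences of 0.47 for Bad (adjusted p = 0.0559), 0.29 for Bcl2l1 (adjusted p = 0.249) and -0.38 for Bcl2 (adjusted p = 0.141). Of the 9 genes 0 passed limma's test, where 3.50% of all genes did, and 3 had an unadjusted p under 0.05 (Bcl2, Bcl2l11 and Bad), as 22.0% of all genes did without this animal. Of the marker lists of 10 cell types, 6 had their lowest median shift among the allogeneic animals in animal 1. The 10 measured markers of macrophages and monocytes had a median shift of -0.64 in animal 1 and of 0.26 to 0.77 in the other 4 allogeneic animals. Granulocyte markers had -0.57 against 0.0057 to 0.88, and megakaryocyte and platelet markers -0.73 against -0.41 to 0.58. The mean level of the macrophage and monocyte list was 5.98 to 6.63 in syngeneic and 5.13 to 7.10 in allogeneic animals, 5 of 10 exceeded background on every array, and Itgam of that list was below it on all. Mpeg1, the brightest of the list, went the other way: animal 1 had 13.14, the highest of the 10 arrays, against 12.05 to 12.76 in the other allogeneic and 11.58 to 12.28 in the syngeneic animals. The part of these cells in the 3 calls was not tested. Of 62 measured markers of 10 cell types, 0 passed limma's test between the groups of 5, and 10 had an unadjusted p under 0.05, where 16.9% of all genes did. The 5 measured NK cell markers had a mean level of 4.13 to 5.46 in syngeneic and 5.18 to 5.81 in allogeneic animals. Ncr1, Klrk1 and Eomes were below background on all arrays, and Gzma had means of 8.86 and 9.92 (adjusted p = 0.0995). Klrd1, like Gzma above background on all arrays, went the other way, with means of 8.47 and 8.17 (limma adjusted p = 0.745). Of the dendritic cell markers 1 of 5 exceeded background on every array and 2 did so on none. The part of these lists in the values of the members was not tested.

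Other members of the family were read from lists of pathway genes. Of the other pro-survival genes, Bcl2l2 (BCL-W) differed by 0.21 (SE 0.19, limma adjusted p = 0.617; 0.056 without allogeneic animal 3) and Bcl2l10 was below background on all arrays. The Bcl2a1 genes share their probe sets with each other and were not analysed here. Of the 5 other pro-death genes, 0 passed limma's test. Bmf, a BH3-only gene linked to cytoskeletal stress, had the largest difference of the family's representative probe sets, 0.96 (SE 0.35, 95% interval 0.19 to 1.74, adjusted p = 0.214). It read 9.50, 8.77, 9.12, 10.17 and 8.97 in the syngeneic and 10.65, 9.84, 10.78, 9.36 and 10.71 in the allogeneic animals. Allogeneic animals 1, 3 and 5 lay above all syngeneic animals and animals 2 and 4 among them. Hrk was below background on all arrays. Of 6 measured relatives of less settled role none passed, and Bnip3, a mitochondrial protein gene of mitophagy, differed by 0.42 (SE 0.14, adjusted p = 0.196) and Bnip2 by -0.18 (adjusted p = 0.508), or by -0.11 without allogeneic animal 5.

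Over all 7 pathway lists, 66 of 78 genes were measured, 1 rose, 0 fell and 65 did not pass, with a median difference of -0.048 against 0.011 over all genes. At an unadjusted p under 0.05 there were 12 of 66, where 16.9% of all genes reached this level. The gene that rose was Fas, the death receptor whose signal reaches mitochondria through Bid. It stood at 6.49, 6.42, 6.63, 6.38 and 6.46 in the syngeneic and 7.76, 7.89, 7.80, 8.07 and 7.69 in the allogeneic animals, with no overlap and a difference of 1.36 (SE 0.11, adjusted p = 0.000390). The other 7 measured genes of the route from death receptors and granzymes to Bid did not pass. Cflar, which encodes the caspase-8 inhibitor FLIP, differed by -0.34 (SE 0.20, adjusted p = 0.420), and by -0.18 without allogeneic animal 5. The rise of Fas was already known in these data when the list was drawn up.

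Downstream of the family, 0 of 16 measured genes of the apoptosome, the caspases and their inhibitors passed. Diablo, whose product is released from mitochondria and blocks caspase inhibitors, differed by 0.40 (SE 0.16, limma adjusted p = 0.242). It passed under 1 of 20 alternatives, without allogeneic animal 1, which stood at 9.66 against 10.28 to 10.40 in the other 4 allogeneic animals. Over the 20 alternatives its difference ran from 0.087 to 0.55. Xiap, the caspase inhibitor that the Diablo product blocks, differed by -0.43 (SE 0.18, adjusted p = 0.270), with 4 of 5 allogeneic animals below all syngeneic ones. Upstream, 0 of 14 measured transcription factors and p53 regulators passed. Atf3, a stress-induced factor, differed by 1.80 (SE 0.41, adjusted p = 0.0854), and Mdm2, the ubiquitin ligase for p53, by -0.50 (SE 0.12, adjusted p = 0.107) with no overlap between groups. Groups without overlap were seen for 4.83% of all genes. Atf3 passed under 5 of 19 alternatives and Mdm2 under 4 of 20. Over these alternatives Atf3 ran from 1.49 to 2.12 and Mdm2 from -0.61 to -0.22. Of 15 measured kinases, ligases and anchors that act on these proteins 0 passed. Dynll2, a dynein light chain that binds BMF, differed by 0.29 (SE 0.11, adjusted p = 0.222), also with no overlap between groups. Pim2, a survival kinase gene, differed by -0.37 (SE 0.16, adjusted p = 0.287), with overlap between groups. Pim1 of the same list had no overlap, with a difference of -0.18 (SE 0.092, limma adjusted p = 0.358).

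**Figure D4:**
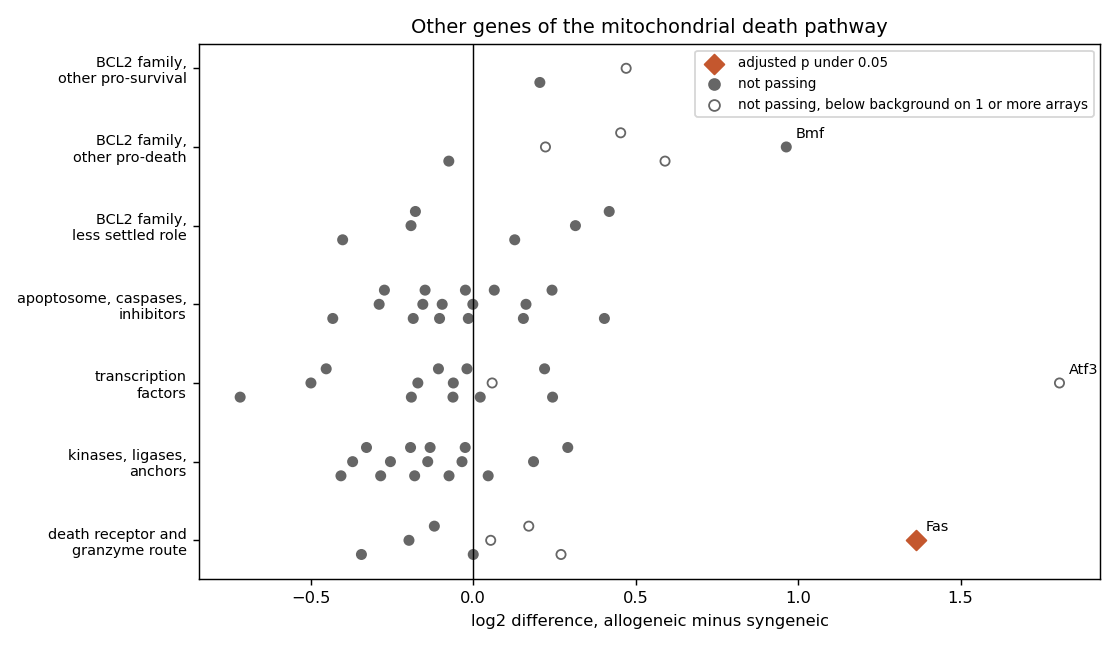
Log2 difference, allogeneic minus syngeneic, of the 66 measured pathway genes in their 7 lists; the diamond marks the gene with a limma adjusted p under 0.05 and open circles mark genes below background on 1 or more arrays. Fas, at 1.36, is the single diamond, and most other genes lie within 0.5 of 0 on either side.

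Genes whose pattern over the 10 arrays was most like that of each member were found by Pearson's r of log2 values among the genes above background on all arrays. The best match reached 0.99 for Mcl1 (Kdm2b), 0.98 for Bad (Mpp1), 0.98 for Bak1 (Ksr1), 0.97 for Bcl2 (2610005L07Rik), 0.97 for Bid (Champ1), 0.97 for Bcl2l11 (Ret), 0.94 for Bcl2l1 (Ganc), 0.89 for Pmaip1 (Tnnt3) and 0.86 for Bbc3 (Focad). The next in line were Evi5, Rbks, Tmem189, 2310015A10Rik, Tmem79, Napepld, Eefsec, Abi1 and Zfp335, in the same order of members. These values are the highest of 10454 or 10455 genes searched over arrays that share the contrast between groups, and are given as a description.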

How the data were processed

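Expression was measured on 1 Affymetrix array for each of 10 animals, from biotinylated cDNA of sorted leukaemia per the labels' protocols. The deposited values are linear intensities, from 0.74 to 22385, of each probe set on each array; how the authors summarised and scaled them is unknown here. Their log2 values were quantile normalized. Names came from the platform table, brought up to date through the gene identifier: 34945 probe sets had 1 symbol, 932 several and 9160 none, and 64 controls were left out. No filter on low values was applied. The background limit of an array was the 95th percentile of 27 bacterial control probe sets. Groups were compared with limma 3.58.1 (lmFit, eBayes) in R 4.3.3, with Benjamini-Hochberg adjustment and a threshold of 0.05, and the fit was tested on simulated data. All members were named, with the genes that passed or had the 2 smallest p-values in each pathway list, the brightest gene of the marker lists used and the 2 genes of most similar pattern for each member. Foxo1, Foxo3, Apaf1, Pim1 and the markers Pax5, Itgam, Ncr1, Klrk1, Eomes and Klrd1 fall outside this rule and were chosen after seeing their values. Members and lists were chosen with earlier results of these data known. Alternatives covered normalization, offset, choice of probe set, filters, the variance model, array weights, a block on animal number and the removal of animals. The number of arrays limits the precision.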

Additional observations from a re-analysis of the deposited data

Results flagged for a closer look

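In groups of 5 animals, 86 were examined for an animal far from the rest, over the member probe sets and the named pathway genes, and chance would give about 1 in 20. Among members, allogeneic animal 3 stood at 11.69 for Bcl2l1 (1420888_at), against 11.25 to 11.38 in the other 4, and allogeneic animal 1 at 11.16 for Bcl2l11 (1456005_a_at), against 10.45 to 10.61. Allogeneic animal 1 also stood at 9.18 for Bad (1416582_a_at), against 10.15 to 10.44, and syngeneic animal 4 at 12.11 for Bid (1417045_at), against 12.33 to 12.40. Among pathway genes, syngeneic animal 4 stood at 11.55 for Bnip2, against 11.85 to 11.97, and at 11.04 for Cflar, against 11.48 to 11.56. Allogeneic animal 1 stood at 9.66 for Diablo, against 10.28 to 10.40, and allogeneic animal 3 at 7.07 for Atf3, against 7.77 to 8.05.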

How the results depend on the processing

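Across 20 alternatives 0 member genes were called in each, and Bcl2, Bcl2l1, Mcl1, Bak1 and Bad kept their direction in all of them. With the mean of probe sets per gene, Bcl2l11 differed by 0.041, Bid by 0.082, Bnip2 by 0.129 and Bcl2l2 by -0.091, each with its sign turned, and the pro-death median was 0.061; the cause was not tested. Leaving out allogeneic animals 1, 3 and 4 kept only allogeneic animals 2 and 5. Bid (0.10), Bbc3 (0.31), Bcl2l2 (-0.12) and Bcl2 1422938_at (0.18) then turned, and the pro-death median was 0.13. Of the 29 member probe sets 1 passed limma's test (Bad 1416582_a_at), where 4.31% of all probe sets did. Of the pathway genes 2 passed (Apaf1 and Fas), and 658 genes were called in all, or 3.62%.

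The count over all genes, 106, became 251 with an offset of 16, 307 with genes above background on at least 5 arrays, 269 with genes at or above the median level, 307 with eBayes trend and robust, and 720 with array weights. Pathway genes called were 2, 3, 2, 3 and 3 in that order, where Atf3, Mdm2 or both joined Fas. Leaving out 1 animal gave 55 to 636 genes (636 when allogeneic animal 1 was dropped, 69 for allogeneic animal 4, and 55, 56 and 57 for syngeneic animals 2, 5 and 1), 1 to 2 pathway genes and 0 to 3 member probe sets. Over the same removals Pmaip1 ran from -0.25 to 0.012 and Bcl2 1422938_at from -0.34 to 0.013. Of the 11 other member probe sets that do not represent their gene, 7 changed sign under at least 1 setting, at differences of up to 0.42 in size.

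With the animal number as a replicate block, 14 genes, 0 pathway genes and 0 member genes were called, and Fas differed by 1.36 (limma adjusted p = 0.0522). Deviations of same-numbered animals correlated at 0.26, 0.35, -0.053, -0.21 and -0.20 for numbers 1 to 5. The same-numbered animal was the best partner for numbers 1 and 2 and not for 3, 4 and 5. These correlations of single arrays cannot decide whether the numbers mark a pairing, which the labels do not state. Signal over background limits Bbc3, which was above the limit on 5 of 10 arrays.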
